A study of Mus musculus with 20 samples.

Results

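Medium spiny neurons are the inhibitory projection neurons that make up most of the striatum, and 9 genes that mark them or carry their cAMP signalling were followed here: Ppp1r1b, Adora2a, Pde10a, Adcy5, Gnal, Foxp1, Bcl11b, Rasgrp2 and Gpr6. They were taken by symbol, as every array probe whose RefSeq name belonged to one of these genes. All 9 were found, through 18 probes, among 20972 genes named on the array, and all 9 were among the 15102 genes tested. Ppp1r1b, Adora2a and Gpr6 had 1 probe each and the other 6 genes had 2 or 3, so that a gene could be read more than once on the same array.

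The arrays came from 20 male C57BL/6J mice in 4 groups of 5. Tat- mice carried only a Tet-binding protein under the GFAP promoter, an astrocyte promoter, and Tat+ mice also carried a TRE promoter transgene for HIV-1 Tat. This design directs Tat to astrocytes rather than the neurons described here, but where Tat was made was not measured here. Every mouse, controls included, received doxycycline at 100 mg/kg daily for 7 days, which switches Tat on in Tat+ mice. Within each genotype the mice received saline (Tat-/Sal, Tat+/Sal) or methamphetamine at 2 mg/kg (Tat-/Meth, Tat+/Meth) for 7 days. By the study's methods abstinence for 7 days followed, every mouse, saline groups included, was challenged once with methamphetamine at 1 mg/kg, and the caudate putamen was collected 1 h later from mice aged 3 to 5 months. The labels differ, naming the left hemisphere of mice aged 6 to 7 weeks, collected 24 h after their final dose. The questions were what repeated methamphetamine did in each genotype, and whether Tat changed that response.

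In these neurons dopamine and adenosine act through cAMP. The adenosine receptor Adora2a, found on the neurons of the indirect pathway, couples to Golf, whose alpha subunit is Gnal, and Golf activates the adenylyl cyclase Adcy5. The phosphodiesterase Pde10a breaks cAMP and cGMP down again, and DARPP-32 (Ppp1r1b) is a target of protein kinase A that, once phosphorylated, inhibits protein phosphatase 1. Bcl11b and Foxp1 are transcription factors of these cells.

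The labelled tissue was checked against markers. Of the 18 probes of the 9 genes, 17 were well above background on all 20 arrays. The exception was a probe of Pde10a in Tat-/Meth. Of the markers of cortical and hippocampal excitatory neurons, 7 of 8 could be tested and 3 were well above background on all arrays. Slc17a7 was so on 18 arrays and Neurod6 on 12. The mean level of these 7 markers ran, relative to their mean over all arrays, from -0.105 to 1.19 log2 units in Tat-/Sal, from -0.37 to 0.36 in Tat-/Meth, from -0.565 to 1.05 in Tat+/Sal and from -0.50 to 0.10 in Tat+/Meth. These ranges overlap between all groups, but the median array stood highest for Tat-/Sal, at 0.284. It was -0.33 for Tat+/Sal, -0.326 for Tat+/Meth and -0.145 for Tat-/Meth. Relative to Tat-/Sal, the median log2 fold change of the 7 markers was -0.79 for Tat+/Sal, -0.722 for Tat+/Meth and -0.682 for Tat-/Meth. Of the 7, respectively 1, 2 and 2 had a positive fold change. Whether cortical content differed between groups was not tested. Fewer cells of a type cannot be told apart from less RNA per cell in these bulk samples.

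The array slides touch every result with Tat-/Meth. Slide 1 held the 5 Tat-/Meth arrays and no others, slide 2 the 5 Tat-/Sal arrays with 3 of Tat+/Meth, and slide 3 the 5 Tat+/Sal arrays with 2 of Tat+/Meth. The bright corner control spots, which do not report mouse RNA, read 14.66 to 15.06 log2 units on slide 1, against 16.80 to 17.42 elsewhere. In comparisons with Tat-/Meth, slide and group cannot be told apart. All levels below are log2 signals after each array was set to a common 75th percentile, a gene is represented by its brightest probe (probe 1) unless another is named, and adjusted p values are from limma with Benjamini-Hochberg adjustment over all genes or all probes tested.

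Repeated methamphetamine in Tat- mice was accompanied by small differences in the 9 genes. None rose and 2 fell at an adjusted p under 0.05, where 35% of all genes tested rose and 15.3% fell (50.2% in all). No member passed with a change above 2-fold, as 6.85% of all genes did. Log2 fold changes of the 9 genes ran from -0.42 to 0.24 with a median of 0.01, while the median of all genes was 0.14. Between Tat+ mice given methamphetamine and Tat+ mice given saline no member passed either limit. No gene on the array passed there (0% at either limit, limma), with 1838 genes at an unadjusted p under 0.05.

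**Figure D1:**
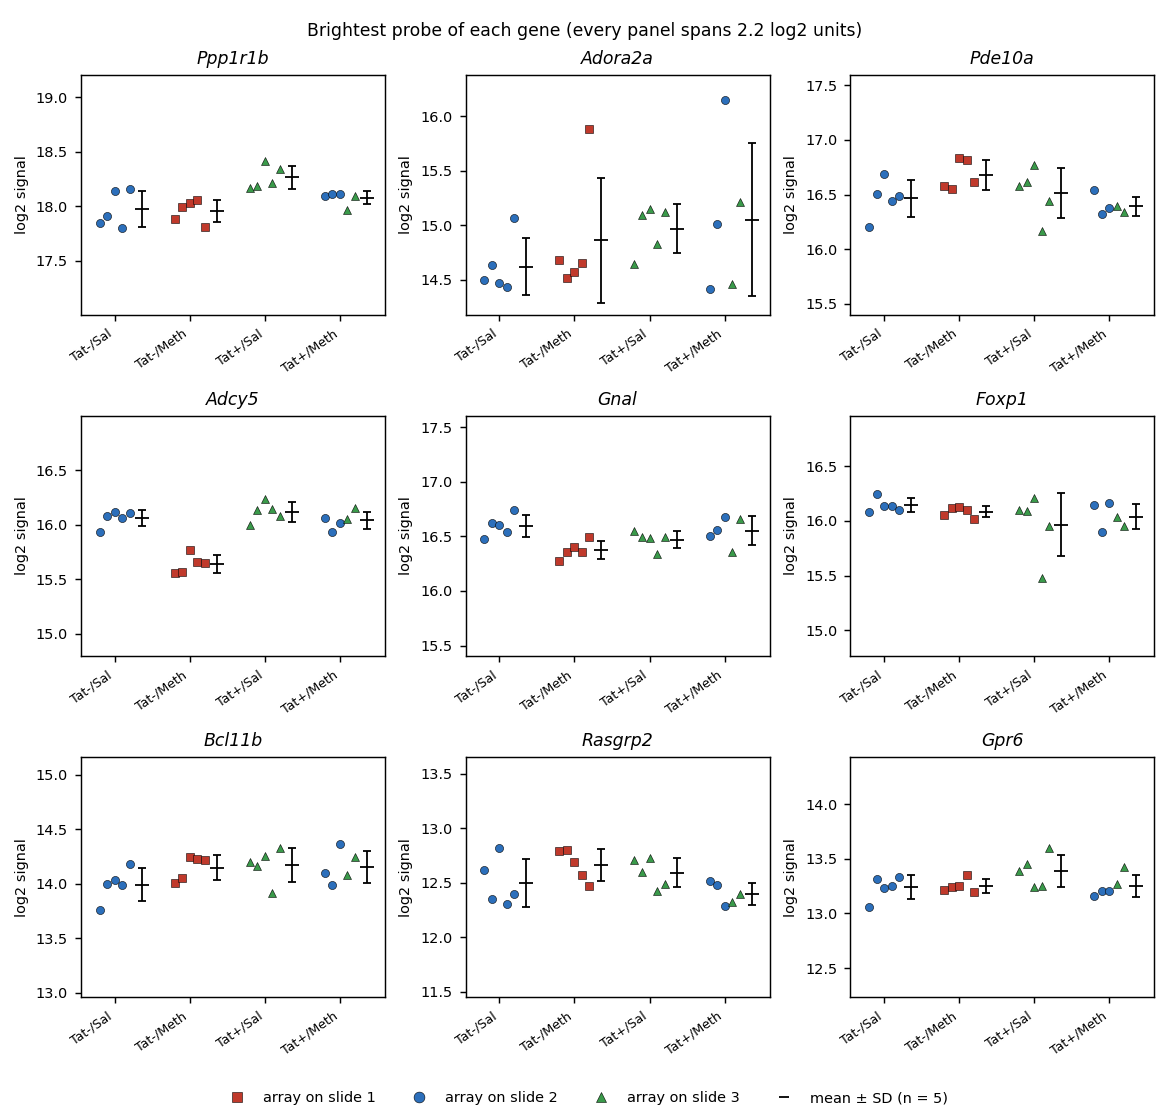
Log2 signal (vertical axis) of the brightest probe of each of the 9 genes on all 20 arrays, by group, with the mean ± SD of each group; colour and shape give the slide. Adcy5 is the gene whose 5 Tat-/Meth arrays (15.56 to 15.77) lie apart from all other arrays.

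Adcy5, the cyclase that makes most of the cAMP of striatal neurons, had the largest called difference by brightest probe. Its probe 1 read 15.56, 15.57, 15.77, 15.66 and 15.65 in Tat-/Meth and 15.94, 16.08, 16.11, 16.06 and 16.11 in Tat-/Sal. The 5 Tat-/Meth arrays all fell short of the lowest Tat-/Sal array. The log2 fold change was -0.42 ± 0.06 (SE, n = 5 per group), a 1.34-fold fall, with an adjusted p of 9.042e-06 (limma), and -0.56 relative to the median of all genes. The Tat+/Sal arrays read 15.99, 16.14, 16.24, 16.14 and 16.08 and the Tat+/Meth arrays 16.06, 15.93, 16.01, 16.05 and 16.15, which overlap each other and the Tat-/Sal arrays. Tat+/Meth was 1.32-fold above Tat-/Meth (log2 0.40 ± 0.06, adjusted p = 1.273e-05, limma), and within Tat+ mice the methamphetamine difference was -0.08 with a 95% interval from -0.20 to 0.04.

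The other 2 Adcy5 probes did not follow. Probe 2 read 15.41 to 15.69 in Tat-/Meth and 15.245 to 15.81 in Tat-/Sal (log2 fold change -0.06 ± 0.10, adjusted p = 0.6407, limma). Probe 3 read 13.85 to 14.02 and 13.72 to 13.98 (0.04 ± 0.06, adjusted p = 0.6267, limma). Since all 3 probes were read on the same arrays, the difference between a pair of them is the same under any scaling by 1 factor per array. Quantile normalization is not such a scaling and moves bright and dim probes unequally. Probe 1 less probe 3 averaged 2.17 ± 0.05 over the Tat-/Sal arrays (SD, n = 5) and 1.72 ± 0.04 over the Tat-/Meth arrays, with no overlap (exact two-sided permutation p = 0.007937, the smallest that 5 against 5 arrays can give, adjusted p = 0.02801 over 60 tests of probe pairs). With quantile normalization the change in this pair shrank from -0.455 to -0.305 (adjusted p = 0.02506). The probes of Adcy5 thus changed unequally, and where each lies in the transcript was not analysed here. Probe 1 of Adcy5 passed in this comparison whichever array was left out. The mean over the 3 probes did not pass, with a log2 fold change of -0.148 (adjusted p = 0.06127, limma), nor did it in Tat+/Meth against Tat-/Meth (0.151, adjusted p = 0.05291) or in the interaction (0.033, adjusted p = 0.8032).

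Gnal, the stimulatory G protein subunit that links dopamine and adenosine receptors to Adcy5, gave opposite answers from its 2 probes. Probe 1 read 16.27, 16.36, 16.41, 16.36 and 16.50 in Tat-/Meth and 16.48, 16.62, 16.60, 16.54 and 16.74 in Tat-/Sal, so that 4 of the 5 Tat-/Meth values were under the lowest Tat-/Sal value. Its log2 fold change was -0.22 ± 0.07 (1.16-fold, adjusted p = 0.01095, limma). Probe 2 read 13.78, 13.80, 13.88, 14.02 and 14.14 in Tat-/Meth and 13.24, 13.60, 13.53, 13.73 and 13.65 in Tat-/Sal. Here every Tat-/Meth array lay above every Tat-/Sal array, with a log2 fold change of 0.37 ± 0.11 (adjusted p = 0.0114, limma over probes). Probe 1 less probe 2 averaged 3.04 ± 0.15 over the Tat-/Sal arrays and 2.45 ± 0.10 over the Tat-/Meth arrays (SD, n = 5, exact permutation p = 0.007937, adjusted p = 0.02801). With quantile normalization the change in the Gnal pair shrank from -0.592 to -0.388 (adjusted p = 0.02506, exact permutation). In Tat+/Sal and Tat+/Meth probe 1 lay between 16.335 and 16.68 and probe 2 between 13.10 and 13.76. Between these groups the log2 fold changes were 0.08 ± 0.07 (adjusted p = 0.6418, limma) and 0.05 ± 0.11 (adjusted p = 0.9022, limma over probes).

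**Figure D2:**
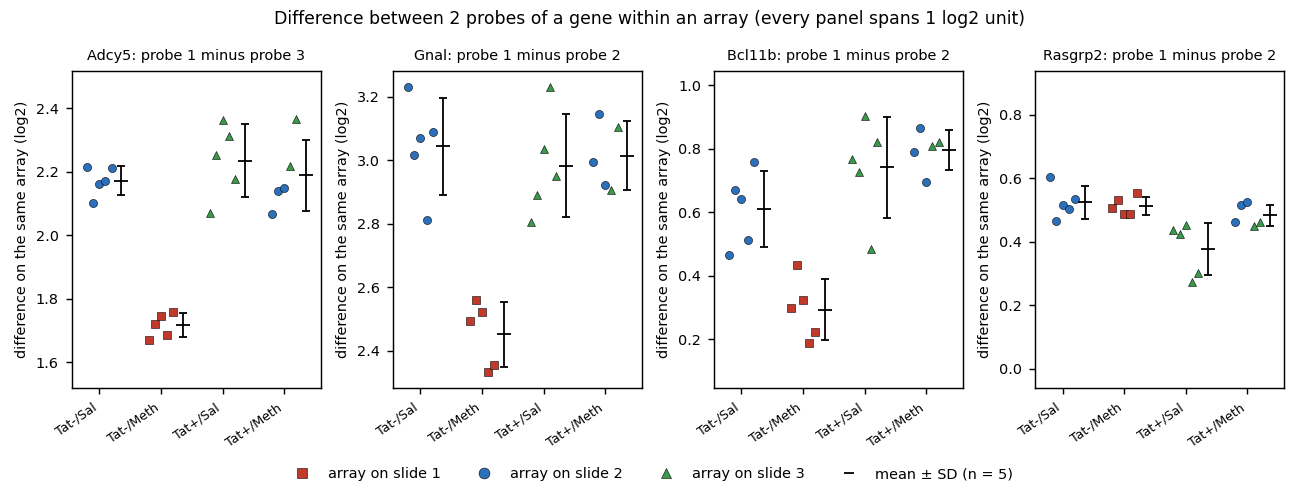
Difference in log2 signal (vertical axis) between 2 probes of the same gene on the same array, for Adcy5, Gnal, Bcl11b and Rasgrp2, by group, with the mean ± SD. For Adcy5, Gnal and Bcl11b the 5 Tat-/Meth arrays stand below all 15 others, and for Rasgrp2 they lie among the Tat-/Sal arrays.

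Pde10a, the phosphodiesterase of both pathways of medium spiny neurons, held the widest split between probes. Probe 1 read 16.58, 16.55, 16.83, 16.82 and 16.62 in Tat-/Meth and 16.20, 16.51, 16.69, 16.44 and 16.49 in Tat-/Sal, groups that overlap (log2 fold change 0.22 ± 0.10, adjusted p = 0.08483, limma). Pde10a passed when Tat-/Sal replicate 3 (adjusted p = 0.03889) or Tat+/Sal replicate 4 (0.04488) was left out of the limma fit. Probe 2 gave 0.115 ± 0.119 (adjusted p = 0.4327, limma). Probe 3, at a far lower signal, read 9.40, 9.63, 9.47, 9.55 and 9.54 in Tat-/Sal and was not well above background on any of the 5 Tat-/Meth arrays, where its signals were 4.49 to 5.23. The measured signals of probe 3 differed with an adjusted p of 3.751e-12 (limma over probes), which does not test a bound. As a bound, the lowest signal well above background on each of those arrays (4.665 to 6.006) was taken, or the probe's own signal where higher. Against the mean of these bounds, probe 3 read 18.8-fold higher in Tat-/Sal. The lowest such signal on an array is not the detection limit of this probe, so the true difference could be smaller.

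Probe 3 of Pde10a also separated by slide inside a single group. The 3 Tat+/Meth arrays on slide 2 read 9.37, 9.445 and 9.58, within or next to the range of the Tat-/Sal arrays on that slide. The 2 Tat+/Meth arrays on slide 3 read 8.51 and 8.42, next to the 5 Tat+/Sal arrays of slide 3 at 8.42, 8.30, 8.45, 8.31 and 8.17. The slides thus differed by 1.001 log2 units within Tat+/Meth, where treatment and genotype were the same. The fit gave Tat+/Sal below Tat-/Sal by a log2 fold change of -1.19 ± 0.20 (adjusted p = 0.02674, limma over probes), the one member probe of 18 to pass there (0.708% of all probes passed), and these groups lie on different slides. Within slide 2 Tat+/Meth differed from Tat-/Sal by -0.05, and within slide 3 from Tat+/Sal by 0.13. Probes 1 and 2 differed between the slides of Tat+/Meth by 0.05 and -0.02.

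**Figure D3:**
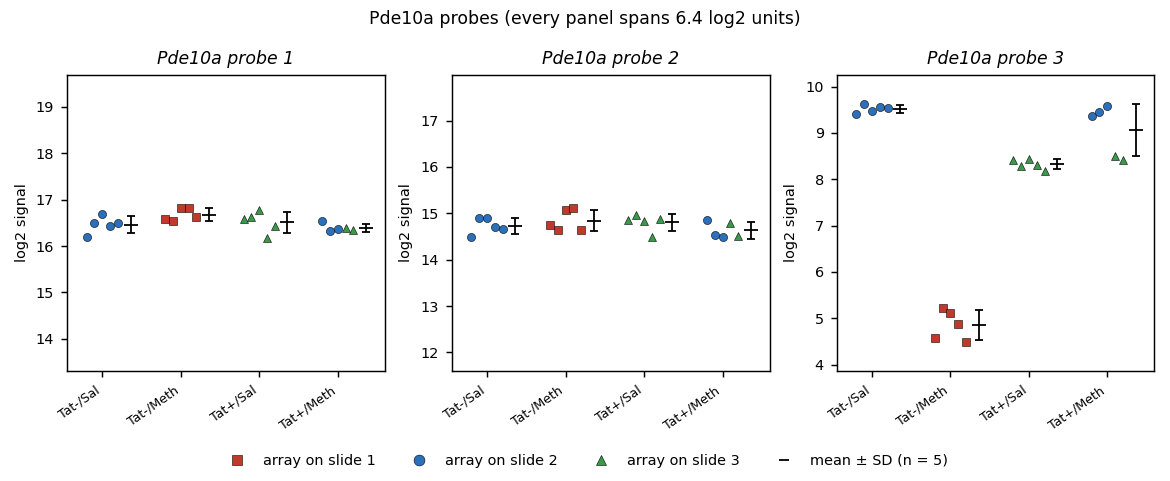
Log2 signal (vertical axis) of the 3 Pde10a probes on all 20 arrays, by group, with the mean ± SD; colour and shape give the slide. Probe 3 falls into 3 levels that follow the slides, at 4.49 to 5.23 on slide 1, 9.37 to 9.63 on slide 2 and 8.17 to 8.51 on slide 3.

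By probe 1 the transcription factors differed less than Adcy5 and Gnal between Tat-/Meth and Tat-/Sal, but Bcl11b probe 2 differed more. For Bcl11b (Ctip2), needed for the differentiation of these neurons, probe 1 read 14.01 to 14.25 in Tat-/Meth and 13.76 to 14.18 in Tat-/Sal (log2 fold change 0.16 ± 0.09, adjusted p = 0.1534, limma). Probe 2, named by another RefSeq transcript, read 13.71, 13.61, 13.92, 14.04 and 13.99 in Tat-/Meth and 13.29, 13.33, 13.39, 13.475 and 13.42 in Tat-/Sal, with no overlap (0.47 ± 0.09, adjusted p = 0.0003477, limma over probes). Its Tat+/Meth arrays read 13.31, 13.12, 13.67, 13.27 and 13.42, 0.50 below Tat-/Meth on average (log2 fold change -0.50 ± 0.09, adjusted p = 0.0002012, limma over probes). Probe 1 less probe 2 of Bcl11b averaged 0.61 ± 0.12 over the Tat-/Sal arrays, 0.29 ± 0.10 over the Tat-/Meth arrays and 0.80 ± 0.06 over the Tat+/Meth arrays (SD, n = 5, exact permutation p = 0.007937 for each against Tat-/Meth, adjusted p = 0.02801). Foxp1, a forkhead factor, read for probe 1 16.02 to 16.13 in Tat-/Meth and 16.08 to 16.25 in Tat-/Sal (-0.06 ± 0.10, adjusted p = 0.65, limma), and probes 2 and 3 gave 0.25 ± 0.11 and -0.02 ± 0.14 without passing.

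Rasgrp2, an exchange factor that activates Rap1, had 2 probes with the same sign in all 5 comparisons of groups and in the interaction. Probe 1 read 12.79, 12.80, 12.69, 12.57 and 12.465 in Tat-/Meth and 12.51, 12.475, 12.28, 12.32 and 12.39 in Tat+/Meth. The log2 fold change of Tat+/Meth over Tat-/Meth was -0.27 ± 0.10 (1.2-fold, adjusted p = 0.02515, limma), with 3 of 5 Tat+/Meth arrays below every Tat-/Meth array. Probe 2 gave -0.24 ± 0.09 (adjusted p = 0.0348, limma over probes). The difference between the 2 probes was 0.38 ± 0.08 in Tat+/Sal (SD, n = 5), below Tat-/Sal at 0.52 ± 0.05 with no overlap (exact permutation p = 0.007937, adjusted p = 0.02801). Against Tat-/Sal, neither Tat-/Meth (0.17 ± 0.10) nor Tat+/Meth (-0.10 ± 0.10) passed, but without Tat-/Sal replicate 3 the first of these did (0.245, adjusted p = 0.02835, limma).

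DARPP-32 (Ppp1r1b), whose phosphorylation state sets how these neurons respond to dopamine, had its widest difference between the saline groups. It read 17.85, 17.91, 18.14, 17.81 and 18.16 in Tat-/Sal and 18.17, 18.19, 18.41, 18.21 and 18.34 in Tat+/Sal. All 5 Tat+/Sal arrays lay above every Tat-/Sal array. The log2 fold change was 0.29 ± 0.08 (1.22-fold, 95% interval 0.13 to 0.45), and the adjusted p of 0.05665 (limma) missed the limit. The Tat+/Meth arrays read 18.10, 18.11, 18.12, 17.97 and 18.10, all below the Tat+/Sal arrays (-0.19 ± 0.08, adjusted p = 0.336, limma), and on slide 3 alone, where both groups lie, the difference was -0.23. Tat-/Meth and Tat-/Sal differed by -0.02 ± 0.08. The 2 saline groups lie on different slides. A fit with slide as a fixed block links them only through the Tat+/Meth arrays, 3 on slide 2 and 2 on slide 3, and so has little precision. In that fit Ppp1r1b did not pass between the saline groups (log2 0.367, adjusted p = 0.8716, limma), and neither did any of the 15102 genes. With slide as a random block, whose estimated correlation was -0.062, it passed (adjusted p = 0.007854, limma), as did 2326 genes against 214 without the block. It also passed when Tat-/Meth replicate 5 (0.04932), Tat-/Sal replicate 3 (0.02735) or 5 (0.04057), or Tat+/Sal replicate 1 (0.04801) was left out.

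Adora2a could not be read with the same precision. Its SD was 0.57 in Tat-/Meth and 0.70 in Tat+/Meth, against 0.26 and 0.22 in Tat-/Sal and Tat+/Sal, and single arrays stood high in both methamphetamine groups. Tat-/Meth read 14.68, 14.52, 14.57, 14.65 and 15.88, and Tat+/Meth 14.42, 15.01, 16.14, 14.46 and 15.21. The log2 fold change of Tat-/Meth over Tat-/Sal was 0.24 with a 95% interval from -0.36 to 0.84 (adjusted p = 0.5037, limma), an interval wider than the whole difference seen for Adcy5. Without Tat-/Meth replicate 5 the value was -0.015. Gpr6, an orphan receptor of indirect pathway neurons that raises cAMP, read 13.20 to 13.36 in Tat-/Meth and 13.06 to 13.34 in Tat-/Sal (log2 fold change 0.01, 95% interval -0.14 to 0.16, adjusted p = 0.9011, limma).

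Because cAMP acts on transcription through the cAMP response element, promoter windows from 250 bases before to 50 bases after each gene start (RefSeq, GRCm38.p6) were searched for its letters, TGACGTCA, which read alike on both strands. Of 10 windows for 6 of the 9 genes, 1 held them, that of Gpr6, as did 1.79% of all 32851 windows. The Gpr6 stretch, 5′ to 3′ on the minus strand at chr10:41072350-41072379, is shown because it is the only window of these genes with the element, which is in capitals.
Gpr6: aacccagagccTGACGTCAccggaccccgc
A match describes the letters of this window and not a bound site. Gpr6 itself differed by no more than 0.15 log2 units in any comparison of groups.

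Across genotypes under methamphetamine (Tat+/Meth vs. Tat-/Meth), 4 of the 9 genes passed, against 54.4% of all genes. By brightest probe, Adcy5 and Gnal were higher and Pde10a and Rasgrp2 lower in Tat+/Meth, where 16% of all genes were higher and 38.5% lower. Gnal gave 0.18 ± 0.07 (adjusted p = 0.03388, limma) and Pde10a gave -0.285 ± 0.101 (adjusted p = 0.02404, limma), with all 5 Tat+/Meth arrays of Pde10a below every Tat-/Meth array. Probe 2 of Gnal went the other way (-0.39 ± 0.11, adjusted p = 0.008215, limma over probes). Probe 2 of Pde10a did not pass (-0.21 ± 0.12, adjusted p = 0.139, limma over probes). Its probe 3 read higher in Tat+/Meth, but was not well above background in Tat-/Meth. Probes 2 and 3 of Adcy5 did not pass (0.12 and -0.07). None of the 9 exceeded 2-fold, as 7.22% of all genes did. This comparison shares the Tat-/Meth arrays with the one above, so the opposite signs of Adcy5 and Gnal are not separate evidence. Adcy5 passed whichever array was left out. Gnal did not pass without Tat-/Meth replicate 1, 2 or 4 or Tat+/Meth replicate 2, 3 or 5 (log2 0.143 to 0.173), Pde10a without Tat-/Meth replicate 3 or 4 or Tat+/Meth replicate 2 (-0.267 to -0.247), and Rasgrp2 without Tat-/Meth replicate 1 or 2 or Tat+/Meth replicate 3 or 4 (-0.247 to -0.233).

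**Figure D4:**
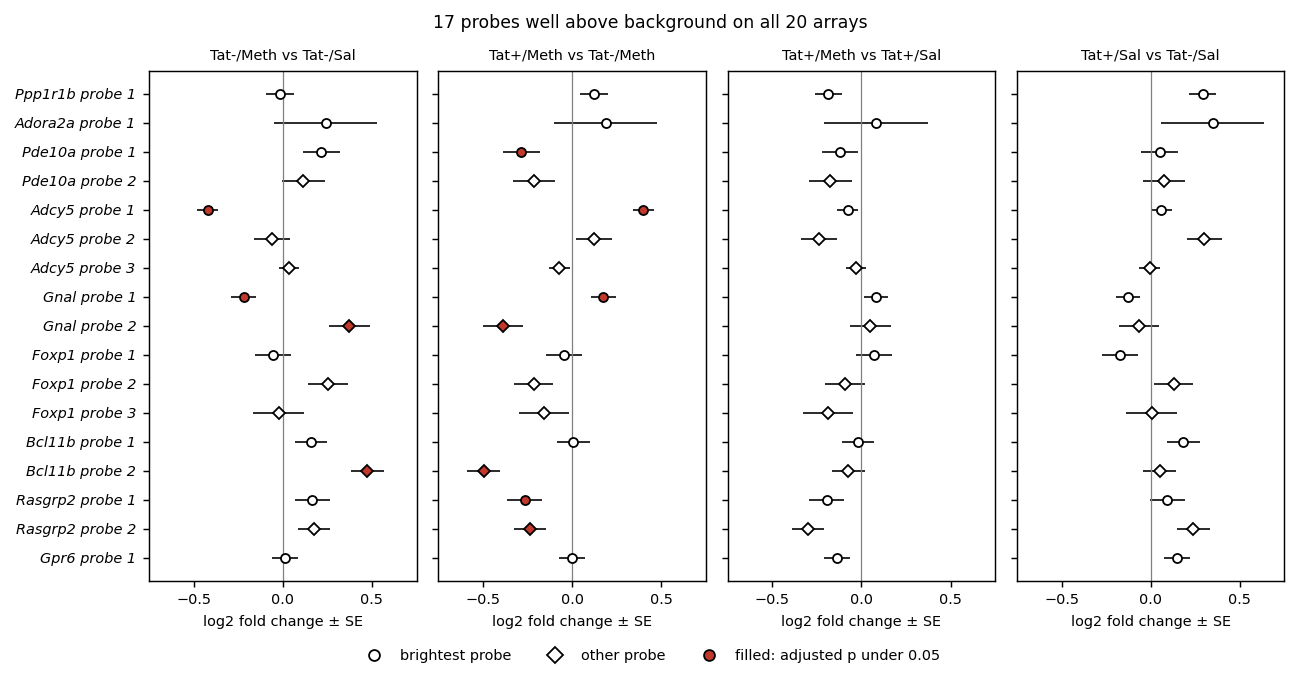
Log2 fold change ± SE (horizontal axis) of 17 probes of the 9 genes in 4 comparisons of groups; circles are brightest probes, diamonds the others, and filled symbols passed an adjusted p under 0.05 in the fit over probes. Filled symbols appear only in the 2 comparisons that include Tat-/Meth; Pde10a probe 3, not well above background in Tat-/Meth, is left out.

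In the saline groups (Tat+/Sal vs. Tat-/Sal) no member passed, against 1.42% of all genes, and none passed with a change above 2-fold, against 0.0199%. Over the 8 genes other than Adora2a, the lowest end of any 95% interval was -0.38 (Foxp1) and the highest 0.45 (Ppp1r1b). Between Tat+/Meth and Tat-/Sal no member and no gene on the array passed (0% at either limit, limma, with 1177 genes at an unadjusted p under 0.05), and the 9 log2 fold changes ran from -0.10 to 0.43.

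The interaction, the methamphetamine difference of Tat+ mice minus the one of Tat- mice, passed for 3 of the 9 genes (36% of all genes). Adcy5 (log2 0.34 ± 0.08, adjusted p = 0.00299, limma) and Gnal (0.30 ± 0.09, adjusted p = 0.01825, limma) were positive, where 12.4% of all genes were, and Rasgrp2 (-0.36 ± 0.14, adjusted p = 0.04556, limma) was negative, where 23.6% were. The other probes of Adcy5 (-0.18 and -0.07) and Gnal (-0.32) were negative and did not pass. Rasgrp2 did not pass without any 1 of 12 of the 20 arrays (log2 -0.358 to -0.31), and Pde10a passed without Tat-/Sal replicate 3 (-0.391) or Tat+/Sal replicate 4 (-0.422). None exceeded 2-fold (7.44% of all genes did). Counted over probes, 5 of 18 passed in Tat-/Meth vs. Tat-/Sal (50.3% of all probes), 8 in Tat+/Meth vs. Tat-/Meth (53.5%) and 6 in the interaction (37%), Pde10a probe 3 among them each time. Of 12 pairs of probes of the same gene, 7 differed between Tat-/Meth and Tat-/Sal at an adjusted p under 0.05 and 7 between Tat+/Meth and Tat-/Meth, against 6 between the saline groups, 2 within Tat+ mice and 1 between Tat+/Meth and Tat-/Sal (exact permutation, n = 5 per group). The pairs came from 6 genes, and those of a gene with 3 probes share probes. The share of such pairs among other genes of the array was not computed, so these counts have no background to be read against.

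Other genes enriched in striatal projection neurons included larger changes. Of 30 tested, 5 rose and 7 fell in Tat-/Meth against Tat-/Sal, where 35% of all genes rose and 15.3% fell, with a median log2 fold change of 0.08 against 0.14 for all genes. Rxrg, a retinoid receptor, fell by 1.26 on the log2 scale (2.4-fold, adjusted p = 3.712e-08, limma), the calmodulin-dependent phosphodiesterase Pde1b fell by 0.65 (adjusted p = 2.48e-08, limma), and the muscarinic receptor Chrm4 fell by 0.63 (adjusted p = 0.0001082, limma). Pdyn, the prodynorphin of direct pathway neurons, rose by 0.51 (adjusted p = 0.000684, limma), and the transcription factors Meis2 and Zfp503 rose by 0.50 and 0.47. In Tat+/Meth against Tat-/Meth 7 were higher, led by Rxrg (1.44), Chrm4 (0.77) and Pde1b (0.70), and 7 were lower, led by Meis2 (-0.49), Isl1 (-0.40) and Pdyn (-0.40), where 16% of all genes were higher and 38.5% lower. In the interaction 7 were positive and 5 negative (12.4% and 23.6% of all genes), among the latter Sp9 (-0.43). None passed in the remaining comparisons.

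Of 31 tested genes of cAMP and protein kinase A signalling, 11 rose and 3 fell in Tat-/Meth against Tat-/Sal, with a median of 0.16, a share near the 35% and 15.3% of all genes that did so. The cyclase Adcy9 rose by 0.49 (adjusted p = 0.001652, limma), the regulatory subunit Prkar2a by 0.46 and the phosphatase inhibitor Ppp1r1a by 0.40 (adjusted p = 2.627e-05, limma). Rap1a, the small GTPase that Rasgrp2 can activate, fell by 1.95 on the log2 scale (3.86-fold, adjusted p = 1.835e-06, limma), while Creb1 fell by 0.26 and the calcineurin subunit Ppp3ca by 0.22. The Rap1a signal was low, at 8.26 ± 0.10 in Tat-/Sal and 6.31 ± 0.75 in Tat-/Meth (SD, n = 5). Its Tat-/Meth arrays ran from 5.62 to 7.24, around the limit of 6 for testing, though all 5 were well above background. In Tat+/Meth against Tat-/Meth 3 were higher (Rap1a 1.57, Gng7 0.24, Creb1 0.215) and 11 lower, led by Prkar2a (-0.63), Arpp19 (-0.455) and Ppp1cb (-0.45), again beside 16% and 38.5% of all genes. In the interaction 2 were positive (Rap1a 1.82, Creb1 0.44) and 8 negative (12.4% and 23.6% of all genes), led by Adcy9 (-0.56), Arpp19 (-0.54) and Adcy3 (-0.49). None passed in the other comparisons. Each of these values rests on the brightest probe, and Tat-/Meth lies on slide 1 alone.

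The marker lists are to be read beside the 35% of all genes that rose and the 15.3% that fell in Tat-/Meth against Tat-/Sal. Of 6 astrocyte markers 3 rose and none fell, and their mean level lay 0.13 to 0.47 log2 units above their mean over all arrays in Tat-/Meth against -0.10 to -0.02 in Tat-/Sal. Of 6 oligodendrocyte markers 2 rose, of 6 microglial markers 1 rose and 1 fell, of 6 interneuron markers 2 rose and 1 fell, of 7 cortical markers 1 rose and 1 fell, of 6 markers of thalamus, cerebellum and hypothalamus 3 fell, and of 5 choroid plexus markers none passed. In Tat+/Meth against Tat-/Meth, where 16% of all genes were higher and 38.5% lower, 4 of 6 astrocyte and 3 of 6 oligodendrocyte markers were lower and 3 of 6 markers of thalamus, cerebellum and hypothalamus higher, 2 of them above 2-fold (median of the list 0.535). There 1 cortical and 1 choroid plexus marker were lower, 1 microglial marker was higher and 2 lower, and 1 interneuron marker was higher and 1 lower. Their part in the results of the 9 genes was not tested.

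Variation between mice of the same group was shared only in part. Over the 20 arrays, with each group's mean removed, the 36 pairs of members had a median Pearson r of 0.30, from -0.41 (Adora2a with Rasgrp2) to 0.77 (Gnal with Bcl11b), and 30 were positive. These r values describe arrays that share scaling and slides. Out of 15054 genes, those nearest each member were Ptprj, Dnajc6 and Pde7b for Pde10a (r 0.82 to 0.85), Flywch2, Cirbp and Dclk1 for Rasgrp2 (0.89 to 0.95), Plk2, Ptges3l and 4933412E12Rik for Adcy5 (0.78 to 0.80), and Vps8, Phyhip and Klhdc3 for Ppp1r1b (0.84 to 0.845). For Gnal they were Sec31a, Brf2 and Zfp580 (0.91 to 0.92), for Foxp1 Arhgap20, Etnk1 and Unc80 (0.89 to 0.90), for Bcl11b Rcn1, Rtl6 and Irgq (0.90 to 0.92), and for Gpr6 P4hb, Farsb and Pla2g6 (0.88 to 0.91). For Adora2a they included Setd5 and Rab5c (0.93), and without the 2 arrays farthest from their group means these fell to 0.78 and 0.77. Those of Foxp1 fell to between 0.68 and 0.74 and that of Pde7b with Pde10a to 0.69. No member was among the 3 genes nearest to another member.

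Scaling moved the differences with Tat-/Meth. The 75th percentile before scaling spanned 0.70 log2 units over the 20 arrays. The median log2 fold change of all genes in Tat-/Meth against Tat-/Sal was 0.14 as scaled here, 0.26 with median scaling and -0.285 with no scaling. Adcy5 stayed below Tat-/Sal under each of the 5 other scalings and backgrounds and passed in all but median scaling, with log2 fold changes from -0.84 to -0.30. Gnal passed with no scaling, normexp and the series matrix values, and not with quantile normalization or median scaling.

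**Figure D5:**
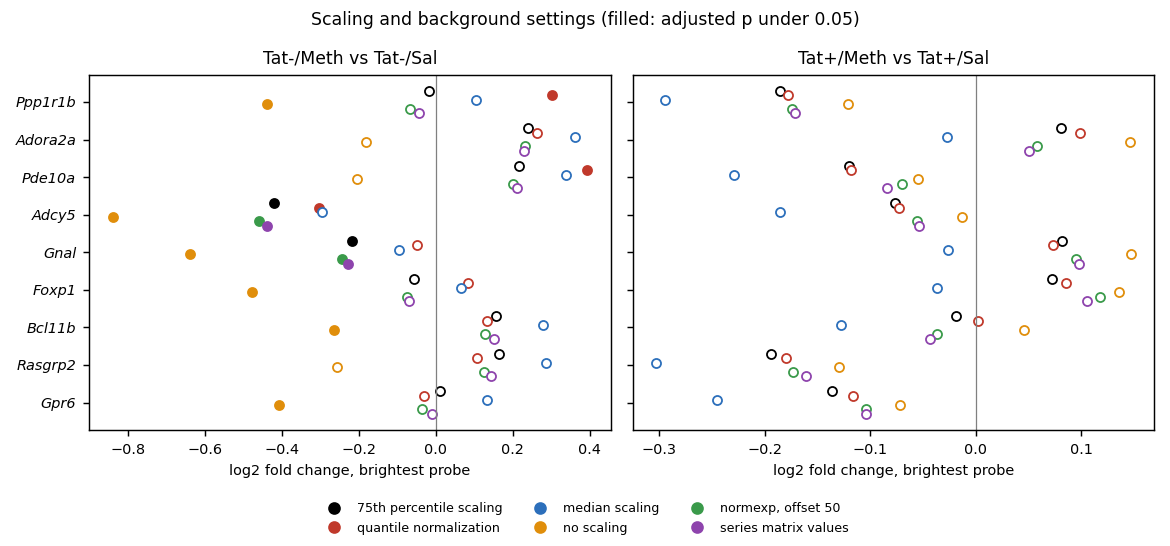
Log2 fold change of the brightest probe (horizontal axis) of each gene under 6 settings of scaling and background, in Tat- mice (left) and Tat+ mice (right); filled points passed an adjusted p under 0.05. In Tat- mice Adcy5 is below 0 under all 6 settings (-0.84 to -0.30) while 7 of the other 8 genes change sign between settings, and in Tat+ mice no point is filled.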

How the data were processed

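RNA from 20 mice was hybridised to one-colour Agilent arrays (Cy3 by the labels; the study's methods text describes another platform and dye). The deposited scanner files hold the intensity of each spot (processed signal, mean signal and background, Feature Extraction by the authors), and the deposited series matrix holds values by the authors on a linear intensity scale, with processing not given in the sources used here. Here log2 processed signal was scaled to each array's 75th percentile, outlier and control spots were left out, and spots of a probe were averaged. The brightest probe stood for a gene, and genes were tested where a group mean reached a log2 signal of 6. limma 3.58.1 in R 4.3.3 was fitted to all 20 arrays with 1 mean per group and no covariate, with Benjamini-Hochberg adjustment over all genes or all probes. Probe pairs were compared within arrays by exact two-sided permutation tests in SciPy 1.17.1, added after the values were seen, as was their repeat with quantile normalization. The limma fit was tested on simulated data for Tat+/Sal against Tat-/Sal, and the other steps were not. Each array is a separate mouse by the labels, and the number of arrays limits the precision.

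The members and gene lists were chosen with earlier results of these data known. Named genes were all members with every probe, the 3 largest changes per list, comparison and direction among those that passed, and the 3 genes nearest each member, of which 1 is not reported here. Alternatives covered scaling (none, by the median, by quantiles), normexp background correction (offset 50), the values of the series matrix, other filters, other uses of the probes, slide as a block, only the groups compared, the methods' t-test, stricter limits, a replicate block and leaving out each array. Same-numbered arrays were not treated as pairs.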

Additional observations from a re-analysis of the deposited data

Results flagged for a closer look

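Of 72 groups of 5 arrays (18 probes in 4 groups), 6 held an array apart from its group by Dixon's criterion of 0.71, which chance gives in about 1 in 20 groups. Ppp1r1b had a low array in Tat+/Meth at 17.971, Adora2a a high array in Tat-/Meth at 15.880, and Pde10a probe 2 and Gnal probe 1 low arrays in Tat+/Sal at 14.489 and 16.335. Foxp1 probe 2 had low arrays in Tat-/Meth at 14.091 and in Tat+/Sal at 13.792.

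By brightest probe, the methamphetamine difference itself differed between Tat+ and Tat- mice, as an interaction in limma. It did so for Adcy5 (log2 0.342, adjusted p = 0.00299, limma), Gnal (0.301, adjusted p = 0.01825) and Rasgrp2 (-0.359, adjusted p = 0.04556), where 36% of all genes passed. Over probes, where 37% of all probes passed, it also did so for Bcl11b probe 2 (-0.547, adjusted p = 0.002956) and Rasgrp2 probe 2 (-0.476, adjusted p = 0.00672). The fitted interaction of Pde10a probe 3 came to 5.400, which is no measured size, since no Tat-/Meth array read the probe well above its background, and since it differed by 1.001 between slides within Tat+/Meth. All 6 values include Tat-/Meth, the group alone on slide 1. The other probes of Adcy5 (-0.178 and -0.066) and Gnal (-0.323) had the opposite sign to their brightest probe and did not pass.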

How the results depend on the processing

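Of 1854 values of single genes under the alternatives, 1691 kept their direction and their side of the limit, 72 turned sign with neither value passing, 27 came to pass, 48 no longer passed, and 16 turned sign with the value passing before, after or both. Members passing in Tat-/Meth vs. Tat-/Sal numbered 2 (7588 of all 15102 genes), but 0 with median scaling (4249 of 15121), 6 with no scaling (7259 of 15121) and 2 to 4 on leaving out each array. In Tat+/Meth vs. Tat-/Meth the 4 (8220 genes) became 0 with median scaling (5935) and 2 to 4 on leaving out each array, and in the interaction the 3 (5437 genes) became 0 with median scaling (2564). The 0 within Tat+ mice became 2 by the methods' t-test unadjusted (1656 genes). The 0 between saline groups (214 genes) became 1 with slide as a random block (2326), with that t-test unadjusted (2828) and with the replicate block (553), and 0 to 1 on leaving out each array. With the mean over probes, 1 member (Pde10a) passed above 2-fold in the interaction and in both comparisons of Tat-/Meth, which averages in probe 3. With quantile normalization, added after seeing the data, probe pairs passing within Tat+ mice went from 2 to 4, and the counts in the other 4 comparisons stayed as given. Same-numbered arrays of different groups correlated from -0.178 to 0.355, with 7 of 30 over 0.1. Arrays with different numbers were not compared in this way, so these values cannot decide whether the numbers pair the arrays.

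The 16 sign turns with a passing value were, in Tat-/Meth vs. Tat-/Sal, Ppp1r1b 0.303 (quantile), Pde10a -1.445 and Gnal 0.077 (mean over probes), and Bcl11b -0.264 and Gpr6 -0.409 (no scaling). In Tat+/Meth vs. Tat-/Meth they were Ppp1r1b -0.269 and Gnal -0.044 (quantile), Pde10a 0.053 and Rasgrp2 0.072 (no scaling), and Pde10a 1.238, Gnal -0.106 and Bcl11b -0.244 (mean over probes). In the interaction they were Ppp1r1b 0.317 and Rasgrp2 0.127 (no scaling), and Pde10a 1.592 and Gnal -0.011 (mean over probes). The cause of these sign turns was not tested. Slide as a fixed block could not be fitted for comparisons with Tat-/Meth.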
